A study of Mus musculus with 12 samples.

Results

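The 10 claudin genes Cldn1, Cldn2, Cldn3, Cldn4, Cldn6, Cldn7, Cldn8, Cldn10, Cldn11 and Cldn12 were examined among 25514 genes counted in mouse proximal tubule (PT) cells. They were taken by name as the claudins of the nephron, and each was followed through its most counted transcript. The cells were conditionally immortalized PT cells derived from male mice that carried the H2ts6 transgene of the Immorto-mouse and floxed Tgfbr2 alleles, the gene of the TGF-β type II receptor (TβRII). They were grown at 33 °C and moved to 37 °C for 5 days before the experiment. TβRIIflox/flox PT cells (genotype H2ts6;Tgfbr2fl/fl) were compared with TβRII-/- PT cells (H2ts6;Tgfbr2-/-), in which the receptor gene had been deleted in vitro with Cre, and each genotype was either untreated or kept for 24 h with H2O2 in serum-free medium. Each of the 4 groups held 3 libraries. The genotypes were 2 cell lines, so the deletion and any other difference between the lines cannot be told apart, and neither can H2O2 and the medium without serum. The labels give the dose as 200 mM and the methods of the study give the same figure in micromolar. Nothing in the labels says that the 3 libraries of a group came from separate cultures, so the p-values measure the spread between these libraries.

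Claudins are membrane proteins with 4 spans that line up between neighbouring epithelial cells and form the strands of the tight junction. Some members seal the space between cells, while others form pores that let selected ions or water pass, so the set of claudins that a nephron segment makes decides what leaks across it. The proximal tubule is a leaky segment, known for the cation and water pore of claudin-2 and the anion pore of a claudin-10 isoform. The collecting duct is a tight segment, known for claudin-3, claudin-4, claudin-7 and claudin-8.

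What the cells held was a short list of claudins, and its make-up differed between the genotypes. Cldn1 and Cldn12 had 2326 to 5875 counts in every library and Cldn2 had 85 to 618. Cldn4 was at 0 counts in the 3 untreated TβRIIflox/flox libraries and at 772 to 898 counts in the 3 untreated TβRII-/- libraries. Cldn3 was counted in TβRII-/- libraries only, at 7 to 18 counts. Cldn7 and Cldn11 were at 0 counts in all 12 libraries, and Cldn6, Cldn8 and Cldn10 never passed 7.

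Cldn3 and Cldn4 lie next to each other, and the sequences before their start sites are shown with those of Cldn2 and Cldn1. These are the 4 claudins that were higher in untreated TβRII-/- cells. Each sequence is the stretch of 250 bases that ends at the base before the RefSeq start of the gene, read 5′ to 3′ along the gene (GRCm38.p6). The bases just after that start lay in the counted transcript, whose own start can differ by a few bases. The windows are chr5:134985964-134986213 on the plus strand for Cldn3, chr5:134946935-134947184 on the minus strand for Cldn4, chrX:139800558-139800807 on the plus strand for Cldn2 and chr16:26371840-26372089 on the minus strand for Cldn1. Capitals mark, on either strand, the E-box CAGGTG that Snail and Zeb repressors bind, the AP-1 motif TGANTCA and the TATA box TATAAA.
Cldn3: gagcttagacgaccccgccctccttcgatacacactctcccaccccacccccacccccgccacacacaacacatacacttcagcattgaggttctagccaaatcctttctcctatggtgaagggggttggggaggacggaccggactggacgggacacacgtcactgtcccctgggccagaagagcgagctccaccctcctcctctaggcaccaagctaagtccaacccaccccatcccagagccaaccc
Cldn4: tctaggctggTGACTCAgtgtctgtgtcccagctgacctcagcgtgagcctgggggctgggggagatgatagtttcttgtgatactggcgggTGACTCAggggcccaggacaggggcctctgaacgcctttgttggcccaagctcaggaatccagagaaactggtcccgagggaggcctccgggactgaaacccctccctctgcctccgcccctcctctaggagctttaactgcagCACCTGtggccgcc
Cldn2: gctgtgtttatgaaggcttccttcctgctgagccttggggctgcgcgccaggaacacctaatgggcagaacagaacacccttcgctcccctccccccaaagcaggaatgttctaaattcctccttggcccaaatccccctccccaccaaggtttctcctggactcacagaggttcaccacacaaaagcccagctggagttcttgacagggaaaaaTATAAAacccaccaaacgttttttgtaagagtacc
Cldn1: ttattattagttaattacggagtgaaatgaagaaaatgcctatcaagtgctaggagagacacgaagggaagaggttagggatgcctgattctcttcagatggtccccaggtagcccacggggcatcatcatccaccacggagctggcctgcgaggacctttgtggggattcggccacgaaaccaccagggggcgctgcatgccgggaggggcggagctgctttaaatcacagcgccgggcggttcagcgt

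The Cldn4 window held TGANTCA at 2 places, 240 to 234 and 158 to 152 bases before the start, and CAGGTG (read as CACCTG) 14 to 9 bases before it, and none of these matches overlapped another. The Cldn2 window held TATAAA 35 to 30 bases before the start. Of 32851 windows of the same length, 6.75% held TGANTCA, 17.2% held CAGGTG and 12.4% held TATAAA at least at 1 place. The windows of Cldn3 and Cldn1 held none of these 3 motifs. Among claudin windows not shown, CAGGTG was also in that of Cldn6, 93 to 88 bases before the start. A Cldn7 window held it 97 to 92 and 57 to 52 bases before the start. Cldn6 never passed 3 counts in a library and Cldn7 was at 0 throughout, so this E-box was not particular to Cldn4. The other motifs searched on both strands were the grainyhead-like motif AACNGGTT (1.79% of windows), the Smad motif CAGAC (42.2%), the HNF1 motif by name (0.00913%) and the GC box GGGCGG (32.7%). Of these, CAGAC was in the Cldn4 window, and GGGCGG was in the windows of Cldn1 (at 2 places), Cldn3 and Cldn4. GC content was 60.8% in the Cldn3 window, 62% in the Cldn4 window, 52% in the Cldn2 window and 55.6% in the Cldn1 window, with 9, 7, 4 and 14 CpG dinucleotides.

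The libraries held 15870155 to 20857618 counts over 1 transcript per gene, and 12971 genes had enough counts to be tested. The floxed gene itself did not check the labels: Tgfbr2 was counted at 7032 to 8791 in untreated TβRIIflox/flox cells and at 6485 to 6895 in untreated TβRII-/- cells, over the whole transcript and not over the deleted part. Lists of markers fixed for this report showed what kind of cell was sequenced. Of 12 proximal tubule markers, 6 were tested and all 6 were lower in untreated TβRII-/- cells (summed level 1269 to 1614 CPM in TβRIIflox/flox, 868 to 928 in TβRII-/-, where CPM are counts scaled to 1000000 per library), while 5, namely Hnf4a, Miox, Slc22a6, Slc27a2 and Slc34a1, never passed 3 counts. The remaining proximal tubule marker, Pdzk1, was not tested. It had 0 to 3 counts in untreated TβRIIflox/flox and 10 to 14 in untreated TβRII-/- libraries. All 6 pan-epithelial markers were higher in TβRII-/- cells (701 to 801 against 1813 to 1964 CPM). Among 10 markers of collecting duct principal cells 4 were higher and 1 lower (197 to 226 against 529.9 to 546), with Aqp2, the water channel that defines these cells, at 0 counts throughout. Of these, Krt8 and Krt18, which are also pan-epithelial markers, were at 1997 against 4418 and at 882 against 4586 normalized counts. Hsd11b2, the enzyme that shields the mineralocorticoid receptor, was at 732 against 187. The other higher markers were Gata3 at 44.6 against 116 and Scnn1g at 13.7 against 28.8. The higher sum of this list thus came from Krt8 and Krt18. The 10 markers of fibroblasts or mesenchyme summed to 1177 to 1221 CPM in untreated TβRIIflox/flox and 803 to 886 in untreated TβRII-/- cells, with 2 higher and 4 lower. The 5 intercalated cell markers stayed at or below 1.49 CPM in every library, and the 7 of the thick ascending limb at or below 6.97. Of the remaining lists in untreated TβRII-/- cells, the distal convoluted tubule had 1 marker higher and 1 lower of 4, parietal epithelium and thin limb 2 higher of 6 (Pax8 and Cldn1 itself), endothelium 1 higher of 6, leukocytes 2 higher of 7, and podocytes 1 higher and 2 lower of 5. Slc5a2 and Pdgfrb passed the filter on low counts only through the TβRIIflox/flox groups, and Cdh1, Epcam and Dcn only through the TβRII-/- groups. These marker counts thus describe the listed genes and are not a test of any list. Of all tested genes, 64.7% differed between the untreated genotypes at an adjusted p under 0.05, 33.3% higher and 31.4% lower in TβRII-/- cells. The part of these marker differences in the claudin results was not tested. In bulk RNA, fewer cells of a type and less RNA per cell cannot be told apart.

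**Figure D1:**
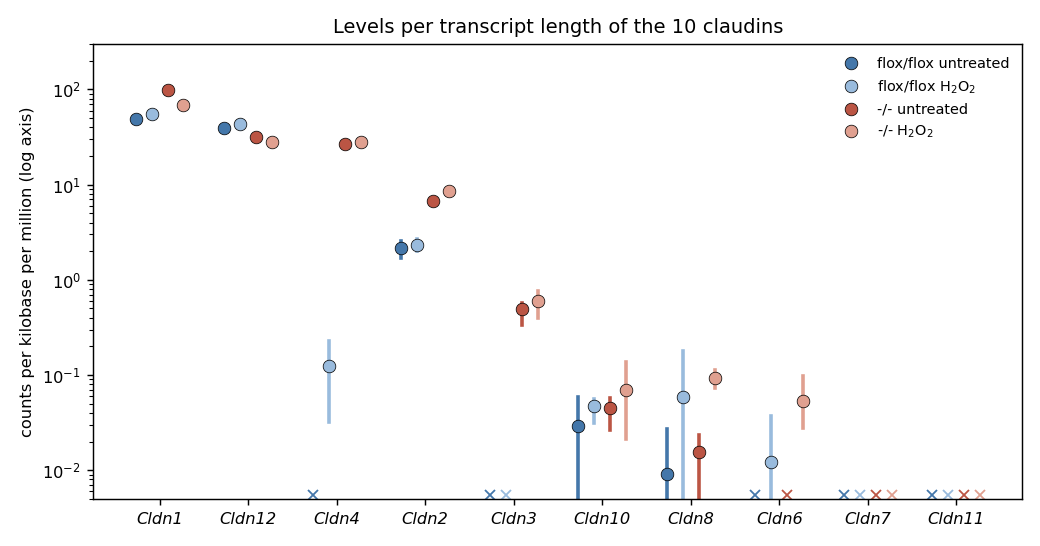
Mean level of each of the 10 claudins in the 4 groups, as CPM per kilobase of transcript on a log axis, with lines from the lowest to the highest of 3 libraries and crosses at the foot of the plot for groups at 0 counts. Cldn1 and Cldn12 stood above the others in TβRIIflox/flox cells, while in TβRII-/- cells with H2O2 Cldn4 and Cldn12 were both at 27.7, and Cldn7 and Cldn11 were at 0 in every group.

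Per transcript length, Cldn1 was the highest claudin in each of the 4 groups. Cldn1 is the sealing claudin best known from skin, and in the kidney from the parietal epithelium of the glomerular capsule. In untreated TβRIIflox/flox cells its level was 48.6 ± 3.79 CPM per kilobase (SD, n = 3), followed by Cldn12 at 39.5 ± 2.48 and Cldn2 at 2.18 ± 0.444, and no library of these 3 genes overlapped one of the next. In untreated TβRII-/- cells the order of levels was Cldn1 at 98.0 ± 4.70, Cldn12 at 31.3 ± 1.5, Cldn4 at 26.5 ± 0.990, Cldn2 at 6.70 ± 0.0504 and Cldn3 at 0.494 ± 0.137, again with no overlap between neighbours. Cldn4 was thus at 0 in TβRIIflox/flox cells and at rank 3 in TβRII-/- cells.

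With H2O2 the TβRIIflox/flox order was kept, with levels in CPM per kilobase of 55.8 ± 1.53 for Cldn1, 42.8 ± 2.49 for Cldn12 and 2.33 ± 0.327 for Cldn2. Cldn4 came next at 0.124 ± 0.0994 and overlapped Cldn8. In TβRII-/- cells with H2O2, Cldn1 was at 68.3 ± 1.79, Cldn4 at 27.7 ± 1.72, Cldn12 at 27.7 ± 1.26, Cldn2 at 8.52 ± 0.462 and Cldn3 at 0.598 ± 0.185. The libraries of Cldn4 and Cldn12 overlapped there, so their order was not resolved. When counts were summed over all annotated transcripts of a gene, Cldn12, with 8 transcripts, came ahead of Cldn1, with 2; a read on shared exons is counted on each of them.

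**Figure D2:**
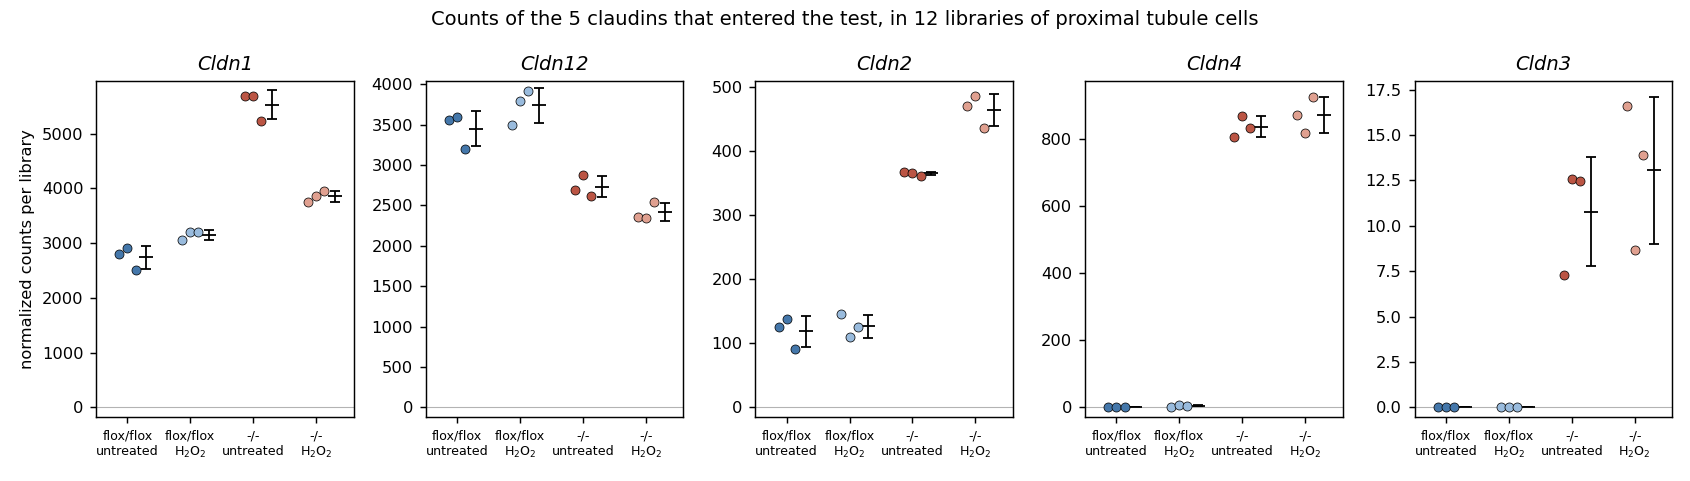
Normalized counts of Cldn1, Cldn12, Cldn2, Cldn4 and Cldn3 in each of the 12 libraries (points), with the mean and SD of each group beside them; each panel has its own linear axis with 0 marked. Cldn4 and Cldn3 sat at or near 0 in all TβRIIflox/flox libraries, and Cldn1 was highest in untreated TβRII-/- cells.

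The first question was which claudins differed between the genotypes without treatment. Of the 10 claudins, 5 passed the filter on low counts, and all 5 differed by edgeR's quasi-likelihood test at an adjusted p under 0.05, where 64.7% of all tested genes did, 33.3% higher and 31.4% lower in TβRII-/- cells. At the limits of the study (a raw p under 0.01 with at least 1.5-fold change), 4 of the 5 were called, all higher in TβRII-/- cells, against 27% of all tested genes, 15.7% higher and 11.3% lower. The median log2 fold change of the 5 was 1.62, also with genes at 0 in a group set to their bound, beside 0.01 over all tested genes. Cldn3 and Cldn4 passed the filter only through the TβRII-/- groups, so these counts describe the 5 genes and are not a test of the family.

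Cldn4 showed the widest gap between the genotypes. This claudin, encoded by a gene with 1 exon (chr5:134945123-134946934, minus strand), lowers the permeability of tight junctions to sodium and works with claudin-8 in the collecting duct. It had 0, 0 and 0 counts in untreated TβRIIflox/flox libraries and 772, 898 and 870 counts in untreated TβRII-/- libraries. With H2O2 the TβRIIflox/flox libraries had 1, 7 and 3 counts and the TβRII-/- libraries 946, 1041 and 932. The genotypes were far apart at both conditions, with at least 772 counts in every TβRII-/- library and at most 7 in every TβRIIflox/flox library.

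Normalized to a common library size, Cldn4 reached 837 ± 31.2 counts (SD, n = 3) in untreated TβRII-/- cells. A count of 0 in a library allows up to 3 counts, and against that floor in each TβRIIflox/flox library Cldn4 was at least 251-fold higher (adjusted p = 7.61e-26). With H2O2 the normalized counts were 3.89 ± 3.13 and 873 ± 54.2, a log2 fold change of 7.76 (SE 0.18, adjusted p = 8.6e-26). The ratio of the summed counts was 223, with an exact 95% interval of 125 to 448 that covers counting error only.

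Cldn3, another sealing claudin of the distal nephron with a gene of 1 exon (chr5:134986214-134987476, plus strand), followed the same split at a much lower level. It had 0 counts in all 6 TβRIIflox/flox libraries. The TβRII-/- libraries held 7, 13 and 13 counts untreated and 18, 11 and 14 counts with H2O2. All 6 TβRII-/- libraries were above all 6 TβRIIflox/flox libraries, though the counts were small.

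The normalized mean of Cldn3 in TβRII-/- cells was 10.8 ± 3.0 untreated and 13.1 ± 4.05 with H2O2 (SD, n = 3). Against the floor of 3 counts per library, Cldn3 was at least 3.23-fold higher in untreated TβRII-/- cells (adjusted p = 1.87e-05) and at least 3.8-fold higher with H2O2 (adjusted p = 4.44e-06). In both genes the bound depends on the depth of the TβRIIflox/flox libraries as well as on the level in TβRII-/- cells.

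The Cldn3 and Cldn4 genes are 39.3 kb apart on chromosome 5, face away from each other and have no annotated gene between them. Within 500 kb of Cldn4, 27 other genes are annotated and 19 were tested. At the study's limits 7 of these 19 were higher in untreated TβRII-/- cells and 0 lower, beside 15.7% and 11.3% of all tested genes, and their median log2 fold change was 0.45. Gtf2ird1, at -0.49, was lower within the fold limit. The neighbours named here were chosen after their values were seen. The largest fitted value was 5.55 for Mlxipl, the gene of a carbohydrate-responsive transcription factor, and Mettl27, the nearest tested gene to Cldn4, had 1.63. Cldn13, 29.6 kb from Cldn4 on its other side, was at 0 counts in all libraries. Within 500 kb of Cldn2, 2 of 4 tested genes were higher at these limits and 0 lower, with a median of 1.52. Near Cldn1 it was 1 of 3 higher and 0 lower, and near Cldn12 0 of 5 higher and 1 lower.

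**Figure D3:**
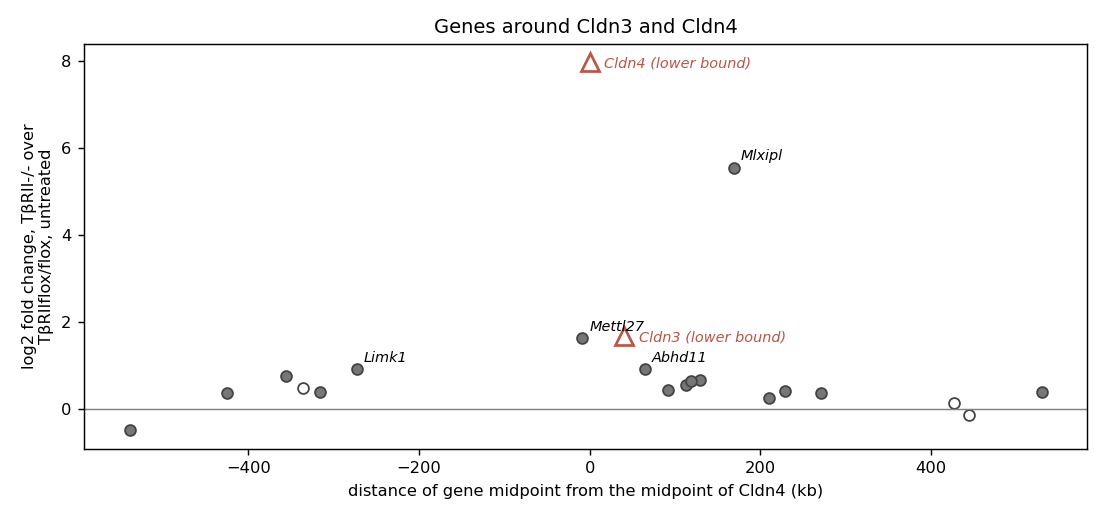
Log2 fold change between untreated genotypes for the 19 tested genes within 500 kb of Cldn4, against the distance of their midpoints in kb, with filled points at an adjusted p under 0.05 and triangles for the lower bounds of Cldn4 and Cldn3. Most points lay between 0 and 1, with Mettl27 at 1.63 and Mlxipl at 5.55 above them and 2 points below 0.

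Cldn2 forms the pore through which sodium, calcium and water pass between the cells of the proximal tubule (chrX:139800808-139811386, plus strand, 2 exons). Untreated TβRIIflox/flox libraries had 120, 124 and 85 counts and untreated TβRII-/- libraries 351, 378 and 378. With H2O2 the counts were 143, 106 and 110 in TβRIIflox/flox and 509, 618 and 439 in TβRII-/- libraries. The lowest TβRII-/- library was above the highest TβRIIflox/flox library at both conditions.

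In normalized counts Cldn2 was at 119 ± 24.2 and 365 ± 2.75 in the untreated genotypes (SD, n = 3), a log2 fold change of 1.62 (SE 0.12, adjusted p = 8.1e-14). With H2O2 it was at 127 ± 17.8 and 464 ± 25.2, a log2 fold change of 1.87 (SE 0.11, adjusted p = 6.12e-16). The difference in Cldn2 ran opposite to that of the 6 tested proximal tubule markers. Pdzk1, a listed proximal tubule marker with too few counts to test, ran the same way as Cldn2. Its normalized means were 1.05 in untreated TβRIIflox/flox and 12.2 in untreated TβRII-/- cells.

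Cldn1 (chr16:26356645-26371839, minus strand, 4 exons) had 2668, 2618 and 2326 counts in untreated TβRIIflox/flox libraries and 5429, 5875 and 5457 in untreated TβRII-/- libraries. The groups did not overlap. Normalized counts were 2740.5 ± 214 and 5530 ± 265 (SD, n = 3), a log2 fold change of 1.01 (SE 0.06, adjusted p = 1.41e-15). With H2O2 the counts were 3005, 3095 and 2792 against 4065, 4915 and 3976, or 3148 ± 86.4 and 3857 ± 101 normalized. The log2 fold change between genotypes was then 0.29 (SE 0.06, adjusted p = 0.000107), which passed the adjusted threshold but not the fold limit. Cldn16, the closest claudin gene to Cldn1 at 91.3 kb and a cation pore partner of the thick ascending limb, was at 0 counts in all libraries.

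Cldn12 was the claudin that was lower in TβRII-/- cells. Claudin-12 is an unusual claudin that lacks the tail motif by which others bind the ZO scaffold proteins, and it has been linked to calcium permeability in the proximal tubule. Its gene (chr5:5505015-5514976, minus strand) gave 3381, 3225 and 2975 counts in untreated TβRIIflox/flox libraries and 2575, 2970 and 2739 in untreated TβRII-/- libraries. With H2O2 the counts were 3449, 3678 and 3422 against 2559, 2986 and 2560. Once normalized for library size, no TβRII-/- library reached a TβRIIflox/flox library at either condition.

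Normalized counts of Cldn12 were 3448 ± 216 and 2730.1 ± 131 in the untreated genotypes (SD, n = 3), a log2 fold change of -0.34 (SE 0.06, adjusted p = 2.14e-05). With H2O2 they were 3740.0 ± 217 and 2419 ± 110, a log2 fold change of -0.63 (SE 0.06, adjusted p = 1.8e-10), past the fold limit as well.

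With H2O2 in both genotypes, the 5 tested claudins again all differed at an adjusted p under 0.05, 4 higher and 1 lower in TβRII-/- cells, where 66.4% of all tested genes did, 35.1% higher and 31.3% lower. At the study's limits 4 were called, 3 higher and 1 lower, against 29.8% of all tested genes, 16.9% higher and 12.9% lower. The untreated and the treated comparison use different libraries.

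The second question was how the claudins answered 24 h of H2O2 in serum-free medium within each genotype. In TβRIIflox/flox cells 2 of the 5 tested claudins were called at an adjusted p under 0.05, both higher, where 41.6% of all tested genes were called, 21% higher and 20.5% lower. At the study's limits 1 was called, against 7.56% of all tested genes, 5.13% higher and 2.44% lower. That call was Cldn4, which passed the filter through the TβRII-/- groups, and it rests on a fitted fold against a group at 0, since the bound of 1.17-fold is under the limit of 1.5-fold. In TβRII-/- cells 1 rose and 2 fell, where 39.6% of all tested genes were called, 20.5% higher and 19.1% lower. There 0 of the 5 passed the study's limits by edgeR or by DESeq2, with 3 at an unadjusted p under 0.05 by edgeR, against 7.77% of all tested genes, 4.25% higher and 3.52% lower.

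Cldn1 moved in opposite directions in the genotypes. In TβRIIflox/flox cells it rose by 0.20 on the log2 scale with H2O2 (SE 0.06, adjusted p = 0.0102). In TβRII-/- cells it fell by 0.52 (SE 0.06, adjusted p = 3.86e-08), and the treated and untreated libraries did not overlap in either genotype. The difference between the responses was itself tested and was -0.72 (SE 0.09, adjusted p = 9.56e-07). The rise in TβRIIflox/flox cells rested on untreated library 3: without it the log2 fold change was 0.14 and the adjusted p 0.0630.

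Cldn12 differed in the same sense by less. Its log2 fold change with H2O2 was 0.12 in TβRIIflox/flox cells (SE 0.06, adjusted p = 0.133), and it fell by 0.18 in TβRII-/- cells (SE 0.06, adjusted p = 0.0265). The difference between the responses was -0.29 (SE 0.09, adjusted p = 0.0303). The fall in TβRII-/- cells passed 0.05 no longer without untreated library 2 (adjusted p = 0.142), without treated library 1 (0.101) or without treated library 2 (0.106). The difference between responses lost its call without TβRII-/- untreated library 2 (adjusted p = 0.104), without TβRIIflox/flox treated library 3 (0.0641) or without TβRII-/- treated library 1 (0.0912) or 2 (0.0956). Without TβRIIflox/flox treated library 1, the log2 fold change of 0.17 in TβRIIflox/flox cells reached an adjusted p of 0.0485.

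Cldn2 rose in TβRII-/- cells with H2O2, by 0.35 on the log2 scale (SE 0.09, adjusted p = 0.00394), and each treated library was above each untreated one. In TβRIIflox/flox cells the value was 0.10 (SE 0.14, adjusted p = 0.586) and the libraries overlapped. The difference between these responses was 0.25 (SE 0.17, adjusted p = 0.388). With counts summed over the 3 Cldn2 transcripts the value in TβRII-/- cells was 0.31 (adjusted p = 0.0719).

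Cldn4 in TβRIIflox/flox cells went from 0, 0 and 0 to 1, 7 and 3 counts with H2O2, called at an adjusted p of 0.0025 and at least 1.17-fold against the floor. In TβRII-/- cells its log2 fold change with H2O2 was 0.06 (SE 0.08, adjusted p = 0.571). The difference between responses had an adjusted p of 0.0132, and of 0.0829 without TβRIIflox/flox treated library 2, which held 7 of the 11 counts. No fold is given for it because a group was at 0. For Cldn3 in TβRII-/- cells the log2 fold change with H2O2 was 0.24 (SE 0.41, adjusted p = 0.68), an SE larger than the value itself.

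Over all 5 tested claudins the difference between responses passed an adjusted p of 0.05 in 3, all with the lower response in TβRII-/- cells, where 10.2% of all tested genes were called, 3.9% in the higher and 6.28% in the lower direction. The plot of changes under H2O2 shows this for Cldn1 and Cldn12, while Cldn4 has no TβRIIflox/flox point there.

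**Figure D4:**
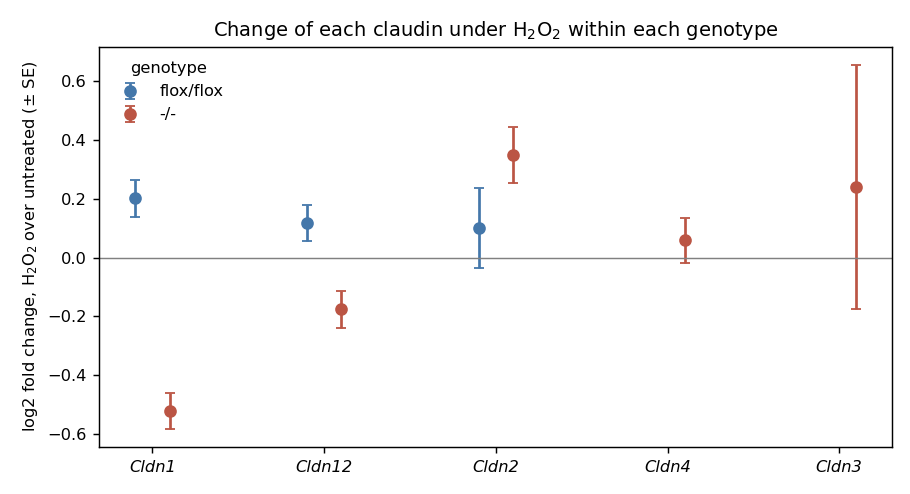
Log2 fold change with H2O2 over untreated (± SE) in TβRIIflox/flox and TβRII-/- cells for the 5 tested claudins; Cldn4 and Cldn3 have no point in TβRIIflox/flox cells because the untreated group was at 0. Cldn1 was at 0.20 and -0.52, Cldn12 at 0.12 and -0.18, and Cldn2 at 0.10 and 0.35.

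Several transcripts are annotated for some of these genes, and their counts were not independent because a read on a shared exon counts for each. Cldn1 has a second transcript with a retained intron that held 88.9% of the total of the first, and its untreated counts of 2368, 2358 and 2060 against 4801, 5210 and 4843 gave the same split between genotypes. For Cldn12, 8 transcripts were counted and the next highest total was 36517 beside 36519. For Cldn2, the second of 3 transcripts held 4.94% of the total of the first, with 2, 7 and 7 counts in untreated TβRIIflox/flox and 18, 17 and 27 in untreated TβRII-/- libraries, which did not overlap. Cldn3, Cldn4 and Cldn8 have 1 annotated transcript each.

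The other 5 claudins had too few counts to test. Cldn10, whose isoforms make the anion pore of the proximal tubule and a sodium pore of the thick ascending limb, had 21 counts over 12 libraries, from 0 to 5 in each, and its groups overlapped. Cldn8, which holds claudin-4 at the junction in the collecting duct, had 0, 1 and 0 counts in untreated TβRIIflox/flox, 0, 1 and 1 in untreated TβRII-/-, 0, 7 and 0 in treated TβRIIflox/flox and 5, 5 and 3 in treated TβRII-/- libraries. The treated TβRIIflox/flox total thus came from a single library, which is also the one with the most Cldn4 in its group. Cldn6, known from embryonic epithelia, had 6 counts in all, 5 of them in treated TβRII-/- libraries.

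Cldn7, a claudin of the basolateral membrane and the collecting duct, and Cldn11, known from myelin and the testis, were at 0 counts in every library, which allows up to 3 counts in each. That floor was 2.36 to 3.44 normalized counts. Differences in these 5 genes could not be tested at this depth. The Cldn7 result stands beside Epcam, the gene of an adhesion protein that binds and stabilizes claudin-7, which had 649 to 697 counts in untreated TβRII-/- libraries.

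Beyond the 10, a list of 19 other claudin and claudin-like genes had 5 tested members, and 12 of the others never passed 2 counts. Untreated, 4 of the 5 differed between genotypes at an adjusted p under 0.05, 1 higher and 3 lower in TβRII-/- cells, with a median log2 fold change of -0.79, where 64.7% of all tested genes differed, 33.3% higher and 31.4% lower. Cldnd1, a claudin-like gene at 2580 counts or more in every library, was lower (log2 fold change -0.79, SE 0.06, adjusted p = 1.43e-12). Cldn15, a cation pore of the intestine, was lower by a log2 fold change of -1.11 at 4 to 18 counts per untreated library, and Cldn34c1 by -3.20 at 1 to 26 counts. Cldn9, 137 bases from Cldn6, had a log2 fold change of 2.0 at 0 to 11 counts, and Cldn19, the partner of claudin-16, one of -0.53 (adjusted p = 0.361). Cldn34c1 passed the filter on low counts only through the TβRIIflox/flox groups, and Cldn9 only through the TβRII-/- groups. The number called thus describes the listed genes and is not a test of the list.

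With H2O2, Cldn15 rose in TβRIIflox/flox cells from 18, 11 and 17 to 55, 60 and 42 counts, a log2 fold change of 1.74 (SE 0.28, adjusted p = 8.86e-06). Cldn19 rose there by 1.16 (adjusted p = 0.0199), and Cldn9 rose in TβRII-/- cells by 1.25 (adjusted p = 0.0204). Both passed the filter on low counts largely through the treated group in which they rose, so these rises are a description only. These were 2 of the 5 tested in TβRIIflox/flox cells, where 41.6% of all tested genes were called, 21% higher and 20.5% lower. In TβRII-/- cells it was 1 of 5, where 39.6% were called, 20.5% higher and 19.1% lower. Of the 2 calls in TβRIIflox/flox cells 1 was left without untreated library 2, untreated library 3 or treated library 2. The call in TβRII-/- cells was lost without untreated library 1, untreated library 2 or treated library 3.

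The tight junction also needs proteins that bundle, anchor or oppose claudins. Of 24 such partners, 22 were tested, and 20 differed between the untreated genotypes, 15 higher and 5 lower in TβRII-/- cells, with a median log2 fold change of 0.36, where 64.7% of all tested genes differed, 33.3% higher and 31.4% lower. At the study's limits 7 were higher and 3 lower, where 27% of all tested genes were called. Ocln and Prkcz passed the filter on low counts only through the TβRII-/- groups. These counts thus describe the listed genes and are not a test of the list. Ocln, the gene of occludin, a strand protein beside the claudins, had 0, 0 and 1 counts in untreated TβRIIflox/flox and 203, 207 and 210 in untreated TβRII-/- libraries, a ratio of 568 (exact 95% counting interval 102 to 22468, adjusted p = 3.99e-19). That is the pattern of Cldn4 in the same libraries.

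Prkcz, an atypical protein kinase C of apical polarity, had 0 counts in the 3 untreated TβRIIflox/flox libraries and 80, 86 and 98 in untreated TβRII-/- libraries, at least 26.0-fold higher. The tricellular junction genes Marveld2 (tricellulin) and Lsr were higher by a log2 fold change of 2.72 and 2.27, Marveld3 by 2.51 and the polarity gene Crb3 by 1.01. Jam3, a junctional adhesion molecule, and Mpdz, a scaffold that binds claudin tails, were lower by -1.77 and -1.39. The scaffold genes Tjp1 and Tjp3 moved less, with a log2 fold change of 0.25 for Tjp1 and 0.98 for Tjp3, and so did F11r at 0.42 and the junction plaque gene Cgn at 0.32. All of these passed an adjusted p of 0.05.

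Under H2O2, 11 partners were called in TβRIIflox/flox cells (8 higher, 3 lower) and 9 in TβRII-/- cells (6 higher, 3 lower), where 41.6% and 39.6% of all tested genes were called. Ocln went from 0, 0 and 1 to 2, 9 and 6 counts in TβRIIflox/flox cells, and its responses differed between genotypes (adjusted p = 0.016). Cgn rose by 0.58 in TβRIIflox/flox cells (SE 0.07, adjusted p = 3.78e-08) and was at 0.05 in TβRII-/- cells (adjusted p = 0.58), and its responses differed by -0.53 (SE 0.10, adjusted p = 0.00035). Cldn1 and Cgn thus both had the lower response in TβRII-/- cells.

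Of 26 genes listed as regulators of claudins, 20 were tested and 19 differed between the untreated genotypes, 14 higher and 5 lower, with a median log2 fold change of 0.83, beside 64.7% of all tested genes. At the study's limits 12 were higher and 3 lower, beside 27%. Grhl2, Grhl3, Epcam and Ovol1 passed the filter only through the TβRII-/- groups, so these counts are not a test of the list either. Grhl2, a grainyhead-like activator of claudin genes, had 1, 2 and 2 counts in untreated TβRIIflox/flox and 156, 154 and 209 in untreated TβRII-/- libraries (log2 fold change 6.47, SE 0.31, adjusted p = 1.14e-17), and its relative Grhl3 was higher by 2.69. Epcam had 0, 1 and 0 against 697, 662 and 649 counts, a ratio of 1839 (exact 95% counting interval 329.8 to 72688). The epithelial repressor of mesenchymal genes Ovol1 was higher by a log2 fold change of 4.15.

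The protease gene St14 (matriptase) and its inhibitor Spint1, which act on EpCAM and claudin-7 in the intestine, were higher by 2.94 and 2.10. The repressors Zeb2 and Snai2, which bind E-boxes, were lower by -1.80 and -1.40. On the same list Zeb1 was lower by -0.89 and Twist1 higher by 0.87 (adjusted p = 1.68e-05). Snai1, at -0.38, was not called (adjusted p = 0.352), so the listed genes of this kind did not all fall. In Zeb2 the untreated counts were 312, 298 and 332 against 82, 104 and 109, with no overlap. With H2O2, 14 regulators were called in TβRIIflox/flox cells (7 higher, 7 lower) and 10 in TβRII-/- cells (6 higher, 4 lower), beside 41.6% and 39.6% of all tested genes. Without untreated library 3 or treated library 1 of TβRIIflox/flox cells the 14 became 9.

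**Figure D5:**
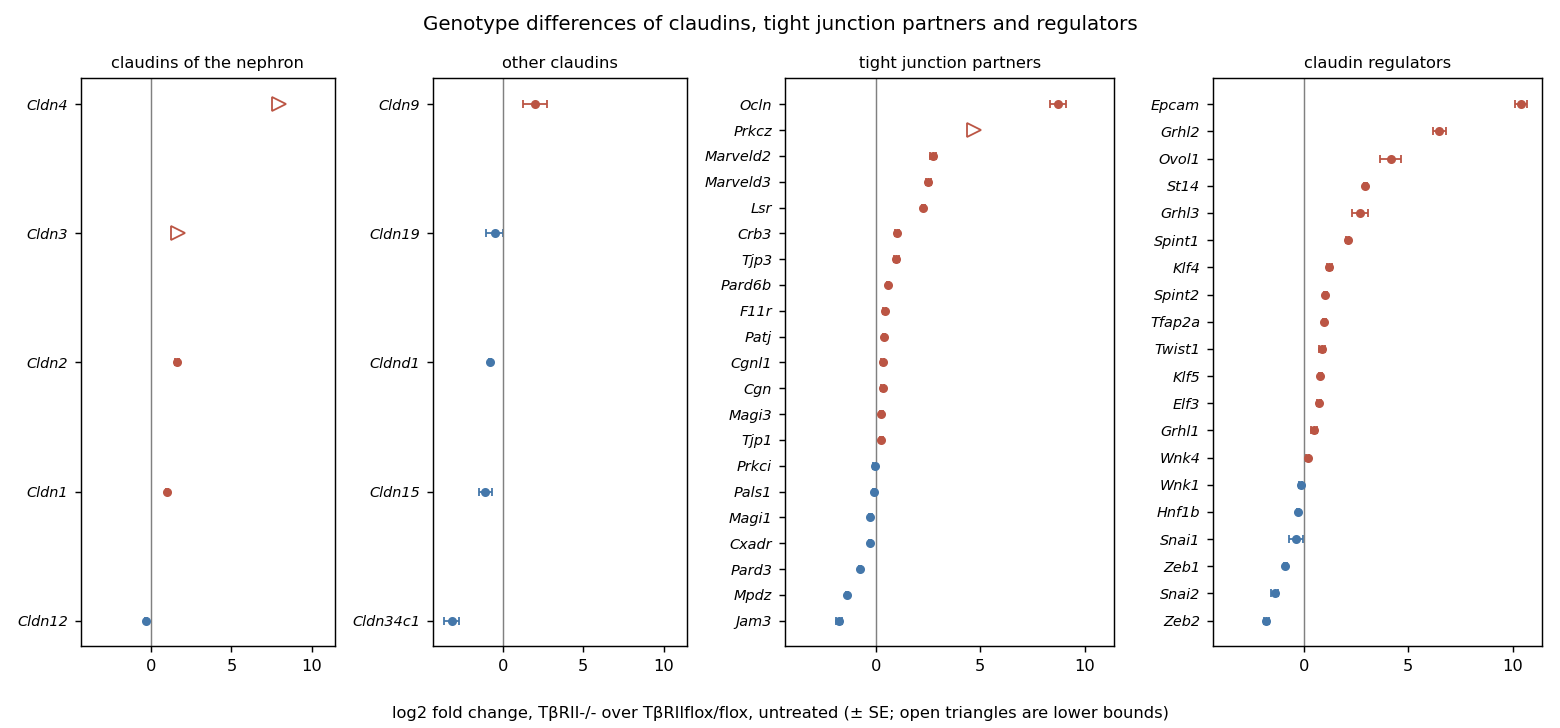
Log2 fold change of untreated TβRII-/- over TβRIIflox/flox cells (± SE) for the tested claudins, other claudins, 21 of the 22 tested tight junction partners and the tested claudin regulators, with open triangles as lower bounds where the TβRIIflox/flox group was at 0. Cldn4, Ocln, Epcam and Grhl2 lay far to the right, and Cldn12, Jam3, Mpdz, Snai2 and Zeb2 to the left of 0.

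For the 3 claudins with the highest mean level per length, the protein-coding genes with the most similar pattern were found by Pearson's r of log2 CPM over the 12 libraries, as a description. The points share the 4 groups, so r is carried by the group means. For Cldn1 they were Acvr2a (r = 0.991), an activin receptor, Adgrg2 (0.988) and Muc21 (0.966). For Cldn12 they were Hspa5 (0.992), the chaperone BiP of the endoplasmic reticulum, Ndc1 (0.987) and Cnih1 (0.987). For Cldn4 they were Top3b (0.998), St14 (0.997) and Susd4 (0.997). Acvr2a had normalized means of 844, 1509, 925 and 1181 in untreated TβRIIflox/flox, untreated TβRII-/-, treated TβRIIflox/flox and treated TβRII-/- cells, the order that Cldn1 had. Pearson's r does not measure the size of a change. In the same groups Top3b was at 1348, 3029, 1578 and 3145, where Cldn4 was at 0, 837, 3.89 and 873. Muc21 was at 0, 51.2, 0 and 9.54, unlike Cldn1, which was counted in every library.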

How the data were processed

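RNA-seq was done by the authors on 12 libraries of PT cells with a stranded mRNA kit. Per the study's methods, reads were trimmed with fastp, aligned with STAR to GRCm38.p6 (GENCODE M23) and counted at gene level with featureCounts. The deposited values are raw counts by transcript identifier, not normalized, and a read was counted on every transcript it overlapped. Of 106332 transcripts, 104820 were matched by Ensembl ID to symbols in GENCODE M39, and the remainder held 1.22% to 1.28% of the counts. For each gene the transcript with the largest summed count was kept. The claudins and all lists were chosen with earlier results of these data known.

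Groups were fitted together with edgeR 4.0.16 (filterByExpr, TMM, quasi-likelihood test) in R 4.3.3 on 12971 genes, with p-values adjusted by Benjamini-Hochberg over all of them. SE was the absolute log2 fold change divided by the square root of F. Normalized counts refer to the mean effective library size of 17351835. Intervals and floors (3 counts per library) cover counting error only. Coordinates are GRCm38.p6 from RefSeq, matched by symbol. Alternatives included DESeq2 1.42.0, other filters, scalings and transcripts, a replicate block and leaving out each library. The rule for named genes took every claudin that was tested, from partners and regulators at most 8 each called at the study's limits in untreated cells by fold size plus Ocln, Tjp1, Tjp3, F11r and Cgn, and 3 genes of like pattern. A gene of the partner list is not reported here, though the list's counts include it. The fits were tested on simulated data. Protein sequences were not used here.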

Additional observations from a re-analysis of the deposited data

Results flagged for a closer look

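Responses to H2O2 differed between the genotypes, by the tested difference itself, for 3 of the 5 tested claudins. For Cldn1 the response in TβRII-/- cells minus that in TβRIIflox/flox cells was -0.72 on the log2 scale (edgeR, adjusted p = 9.56e-07), with a fall in one genotype and a rise in the other. For Cldn12 it was -0.29 (adjusted p = 0.0303). For Cldn4 only the adjusted p of 0.0132 is given, since the untreated TβRIIflox/flox group was at 0 counts and the treated one held 11 counts in all. The Cldn4 call was lost without treated TβRIIflox/flox library 2 (adjusted p = 0.0829), which held 7 of the 11 counts, and the Cldn12 call was lost in 4 of the fits that left out a library (adjusted p 0.0641 to 0.104).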

How the results depend on the processing

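Log2 fold changes of the tested claudins were recomputed under 20 settings, 331 values in all: 316 kept their direction and side of the threshold, 11 lost the call, 1 gained it and 3 reversed. The reversals were all of Cldn2 with H2O2 in TβRIIflox/flox cells, never called: -0.32 with the next highest transcript, -0.051 without TβRIIflox/flox untreated library 3 and -0.0039 without treated library 1, in a range of -0.051 to 0.23 when each library was left out. The next highest transcript held 4.94% of the total of the most counted Cldn2 transcript. With it the change with H2O2 in TβRII-/- cells also lost its call (adjusted p = 0.786).

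Requiring 10 counts in every library removed Cldn3 and Cldn4 by construction, leaving 3 claudins called between genotypes untreated and 3 with H2O2 (2 and 2 at the study's limits) and, with H2O2 in TβRIIflox/flox cells, 1 (0 at the limits). Fitting only the groups compared also applied the filter on low counts to those groups alone. Between genotypes this left Cldn3 untested and gave 4 claudins called untreated and 4 with H2O2 (3 and 3 at the study's limits). With H2O2 in TβRIIflox/flox cells it left Cldn4 untested and gave 1 (0 at the limits). Leaving out each library in turn gave 1 to 3 claudins there, with 1 without TβRIIflox/flox untreated library 3. It gave 2 to 3 with H2O2 in TβRII-/- cells and 2 to 3 for the difference between responses. Ranked by level, Cldn1 was 2 and Cldn12 was 1 with counts summed over transcripts, and Cldn8 was 6 and Cldn10 was 7 without division by length.

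Alternatives for the gene lists were chosen after seeing the data. Regulators called with H2O2 in TβRIIflox/flox cells fell from 14 to 9 without TβRIIflox/flox untreated library 3 or without treated library 1. Partners with different responses fell from 5 to 3 without TβRIIflox/flox untreated library 2 or without treated library 2. Other claudins called with H2O2 in TβRIIflox/flox cells went from 2 to 1 with summed transcripts and to 0 with 10 counts required in every library. Those called with H2O2 in TβRII-/- cells, 1 in all, went to 0 in 6 settings, DESeq2 among them.

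Replicate numbers did not pair the libraries: the deviations of same-numbered libraries correlated at -0.101 to 0.058, none of 18 pairs over 0.1, and 2 of 12 libraries correlated best with their own number. With a replicate block the counts of claudins called stayed at 5, 5, 2, 3 and 3 for the 5 comparisons, and the Cldn1 difference between responses was -0.72.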
